A study of Mus musculus with 105 samples.

Results

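The cells described here are single undifferentiated mouse embryonic stem cells (mESCs) of day 0, the start of a differentiation time course of the line TX1072. Each was captured on its own in a microfluidic chip, and a capture site counted as a cell when at least 40000 unique molecular identifiers (UMIs, the tags that mark separate RNA molecules) fell on genes other than the added ERCC spike-in RNAs. This held for 325 of the 400 day 0 sites, and for 1667 of the 2000 sites of all 5 days. The cut fell in a gap, since the 3 fullest sites below it held 27080, 33895 and 34127 UMIs and the 3 emptiest above it 41330, 41629 and 43126. Of the 325 cells, 277 are on the list of day 0 cells kept in the study, which dropped cells of low quality and cells that had lost an X chromosome.

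TX1072 is a female F1 hybrid line from a cross of the mouse strains C57BL/6 (B6) and CAST/EiJ (Cast), and the cells were of its clone A3. It carries an X chromosome of each strain, a doxycycline-responsive promoter in front of Xist on the B6 X, and the rtTA transactivator in the Rosa26 locus. At day 0 the cells grew on gelatin in serum with Lif and 2i, the Gsk3 inhibitor CT-99021 and the MEK inhibitor PD0325901, and at days 1 to 4 Lif and 2i had been withdrawn. A single culture was captured per day, so that the cells share their clone, dish and chip and give no p-value. Bulk RNA of the same line was sequenced with 3 replicates per day, the first of them from the population that gave the single cells.

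Naive pluripotency is the ground state of the early epiblast, in which a mESC can still give rise to every tissue of the embryo. Lif acts through Stat3, Gsk3 inhibition stabilises beta-catenin and thereby switches on Wnt targets, and MEK inhibition cuts off the ERK signal that drives cells out of the state. A network of transcription factors holds it in place, among them Nanog, a homeodomain factor that sustains self-renewal, Esrrb, an orphan nuclear receptor, Prdm14, a repressor of FGF signalling and of DNA methyltransferase genes, and Klf4, a Krüppel-like factor downstream of Lif. In serum with Lif alone, several of these factors are known to be heterogeneous between cells, and 2i is known to make them more even.

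The cells held between 41330 and 279557 UMIs (median 137374) on 4602 to 9117 detected genes (median 6315), with 0.399% to 5.11% (median 2.44%) of the UMIs from the mitochondrial genome. The cells filled a compartment of the chip (integrated fluidic circuit, IFC), labelled as 10 columns of 40 rows. Each column is a library of its own, and the same 40 row barcodes serve in every column. The chip's other compartment was loaded with a different cell type, which the study did not analyse. Levels are given as CPM, the UMIs of a gene scaled to the same UMI total in every cell, and shares of cells with a UMI after every cell was thinned to 40000 UMIs. IFC column 2, with 28 of the cells, stood apart from the other 9. Its mean lay beyond the limit of Dixon's test for an outlier among 10 columns in 219 of the 1625 genes with a mean of at least 20 UMIs (13.5%), against 2 to 15 genes for any other column, and values without it are given where a result moves.

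The label was checked against the 4 naive markers, of which 3 were present in nearly every cell and the fourth in most. Nanog held between 1 and 154 UMIs per cell with a median of 46, and its level was 353 CPM ± 173 (SD over 325 cells). After thinning, 99.1% of cells had a Nanog UMI (95% exact Clopper-Pearson interval 97.3% to 99.8%), and before thinning 100% had one. Esrrb was as widespread, with 1 to 209 UMIs (median 45), 366 CPM ± 180 and a UMI in 98.8% of thinned cells. Klf4 held 1 to 175 UMIs (median 41) at 369 CPM ± 235, and 97.8% of thinned cells had a UMI. Prdm14 held 0 to 74 UMIs (median 11) at 112 CPM ± 117, with a UMI in 73.8% of thinned cells (68.7% to 78.5%) and 82.5% of unthinned ones. All 4 were detected together in 232 thinned cells (71.4%), and no unthinned cell had fewer than 3 of them. For comparison, of the 8 genes of the fibroblast list, a cell type not in this culture's label, Col1a1 had a UMI in 17.8% of the same thinned cells, Thy1 in 12.9%, Col1a2 in 10.8% and Twist1 in 3.38%, and Col3a1, Dcn, Lum and Postn in none, which allows a share of up to 0.923%. Intervals and such limits cover counting error only.

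**Figure D1:**
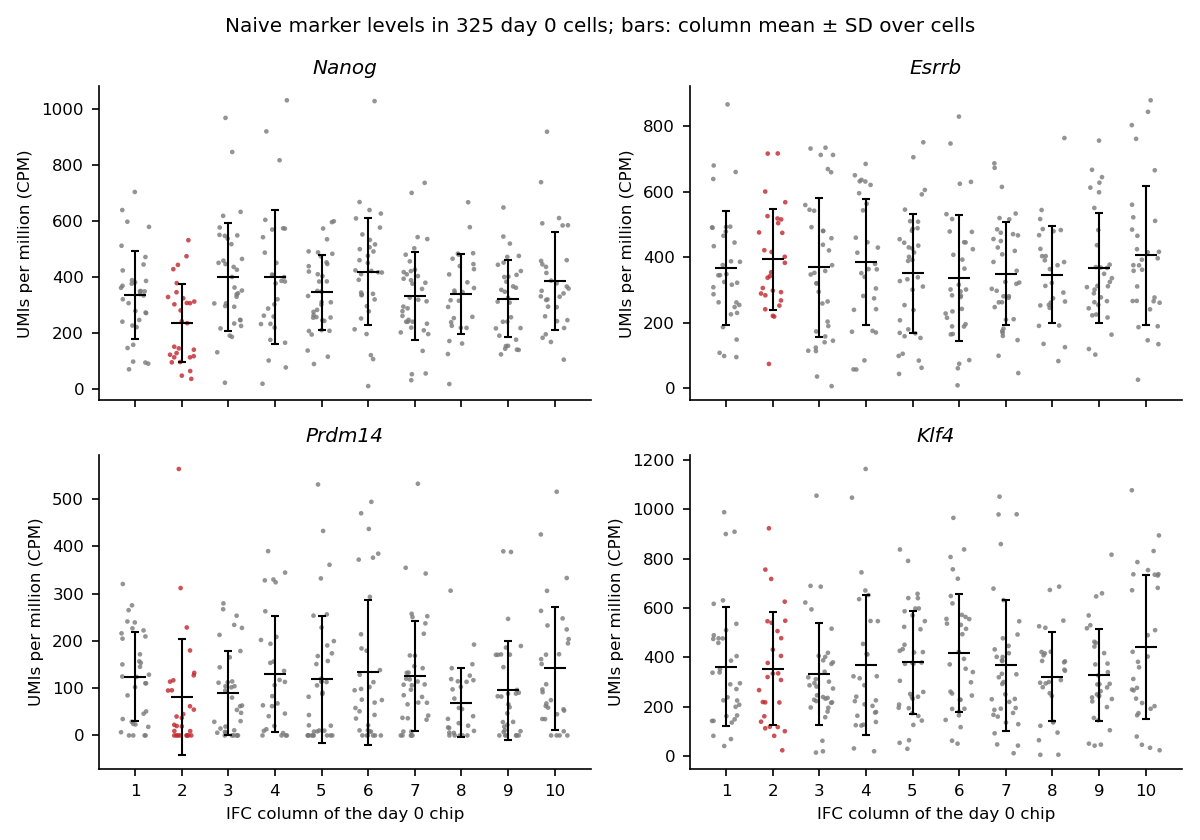
Level of Nanog, Esrrb, Prdm14 and Klf4 in CPM (vertical axes) in each of the 325 cells, by IFC column (horizontal axes), with the mean ± SD over the cells of each column and column 2 in red. Nanog was lowest in column 2, at a mean of 236 CPM, whereas the column means of Esrrb and Klf4 lay within 336 to 405 CPM and 322 to 442 CPM.

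Column means of Nanog ran from 236 CPM in column 2 to 419 CPM in column 6, and without column 2 the level was 364 CPM ± 172 (297 cells). In column 2 other naive genes were also lower than in the remaining columns, namely Nr0b1 (55.6 against 147 CPM), Klf2 (341 against 512 CPM), Dppa3 (78.1 against 136 CPM) and Nr5a2 (44.3 against 88.6 CPM). Others were higher there, namely Klf5 (430 against 278 CPM), Tfcp2l1 (1780 against 1429 CPM) and Zfp42 (406 against 289 CPM). These genes were named after their values were seen. The library and the position on the chip cannot be told apart from any difference between the cells loaded into column 2.

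The 16 genes of the naive list were widely shared too. The nuclear receptor Nr0b1 had a UMI in 72.6% of thinned cells (140 CPM ± 156, 0 to 132 UMIs), and Dppa3, a maternal factor that protects DNA methylation marks in the zygote, in 81.8% (131 CPM ± 118). The Stat3 target Tfcp2l1 held 12 to 432 UMIs (median 197; 1459 CPM ± 425), and Tdh, the threonine dehydrogenase on which mESC metabolism relies, 4 to 399 UMIs (median 135; 980 CPM ± 337). Klf2 (497 CPM ± 272), Klf5 (291 CPM ± 200), Tbx3 (250 CPM ± 153) and Zfp42, also known as Rex1 (299 CPM ± 161), had similarly wide spreads between cells. The exception was the homeobox gene Gbx2, with a UMI in only 12.9% of thinned cells. After thinning, 15 cells had a UMI of all 16 genes and 1 cell had as few as 9. The summed level of the list ran from 1228 to 8283 CPM with a median of 5861 CPM.

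How far these genes varied between cells was measured as a dispersion, the variance beyond Poisson sampling divided by the squared mean, and set against the ERCC spike-ins, which were added in equal amounts and vary only through handling and counting. The product of dispersion and mean was 7.80 to 19.3 over 17 spike-ins (median 12.7) and had a median of 11.03 over genes. Counts thus spread beyond Poisson sampling in the spike-ins too, and most genes varied no more than the spike-ins did. The cause of this spread was not tested. Of the 9382 genes with a mean of at least 1 UMI, 24.0% lay above the line through the spike-ins and 1.88% more than 1.5 times above it. In the naive list 11 of 16 genes lay above the line and 3 by more than 1.5 times, with a median ratio of 1.07 against 0.841 over all genes. The naive genes are more abundant than most, and among all 1625 genes with a mean of at least 20 UMIs 48.1% lay above the line and 5.17% more than 1.5 times above it. The line depends on how the spike-ins are scaled. When each was scaled to the sum of the others in place of the sum of all, 10.5% of all genes lay above the line and 0.970% more than 1.5 times above it, and in the naive list 6 of 16 genes and 1 gene did. Ratios under this second scaling, which was added after the values were seen, are given where they fall on another side of 1 or 1.5.

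Nanog and Esrrb lay below the spike-in line, with dispersions of 0.189 and 0.214 and ratios to the line of 0.814 and 0.951. Nanog stood at percentile 22.5 and Esrrb at percentile 40.5 among genes of like mean. Prdm14, at 0.885, was 1.08 times the line, or 0.895 times under the second scaling. Relative to the line, which falls with the mean, Klf4 was the most variable of the 4 markers, with a dispersion of 0.358, 1.55 times the line (1.14 under the second scaling) and percentile 96 of genes of like mean. The other naive genes over 1.5 times were Nr0b1 (1.87, and 1.51 under the second scaling) and Klf2 (1.64 and 1.17), and Klf5 followed at 1.41. With each IFC column left out in turn the dispersion stayed within 0.177 to 0.199 for Nanog and 0.337 to 0.381 for Klf4.

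**Figure D2:**
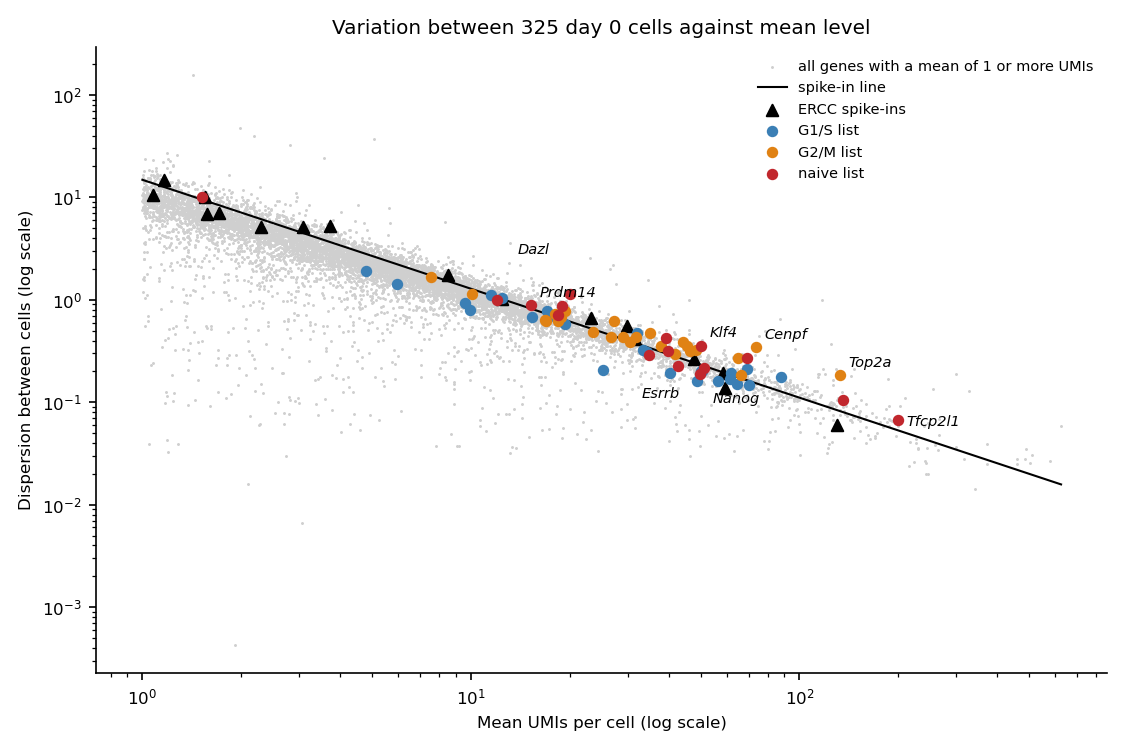
Dispersion between the 325 cells against mean UMIs per cell, both on log scales, for all genes with a mean of at least 1 UMI (grey), ERCC spike-ins (triangles, with the line through them) and the genes of the G1/S, G2/M and naive lists. Nanog and Esrrb lie under the line, Klf4 and the mitotic genes Top2a and Cenpf above it.

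Genes of the general pluripotency program were detected at day 0 as well. Sox2, the partner of Oct4, had a UMI in every cell (3 to 179, median 52; 390 CPM ± 186), and Dppa5a, an RNA-binding protein gene of mESCs, held 117 to 892 UMIs (4308 CPM ± 815). Pou5f1, which encodes Oct4, was counted at only 54.8 CPM with a UMI in 54.5% of thinned cells, while Pou5f1 had 908, 1138 and 1316 CPM in the 3 day 0 bulk libraries. With single-cell and bulk levels this far apart, the share for Pou5f1 is not read as a share of expressing cells, and the cause of the gap was not tested. Of 8 core pluripotency genes with a mean of at least 1 UMI, 4 lay above the spike-in line and 2 more than 1.5 times above it. Tdgf1 (1.57, or 1.16 under the second scaling), an Egf-Cfc co-receptor of Nodal, was among the 2. Under the second scaling 1 and 0 of the 8 genes did. Of all genes 24.0% lay above the line, and 10.5% under the second scaling. Of genes with a mean of at least 20 UMIs 48.1% and 8.74% did. The median percentile of the 8 genes among genes of like mean was 29.5. Formative genes, which mark the step after the naive state, were unevenly present. The de novo DNA methyltransferase gene Dnmt3b had a UMI in 90.8% of thinned cells and Dnmt3a in 46.5%, the transcription factor genes Otx2 and Pou3f1 in 28.6% and 27.4%, and Fgf5 in 0.923%. Counted as cells with at least 3 genes and 5 UMIs of the list, 118 of the 325 cells (36.3%, 31.1% to 41.8%) were formative-marked, and their number depended on the minimum.

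The targets of the inhibited and the stimulated pathways were measured in the same cells. Of the ERK targets, which MEK inhibition turns down, the feedback inhibitor genes Spry4 and Dusp6 had a UMI in 0.308% and 7.08% of thinned cells, and the ETS factor gene Etv4 in 0.615%. Not every ERK target was low, since Etv5 was seen in 88.0% of cells and Spry2 in 60.0%. Of the Wnt targets, Cdx1 and Sp5 were seen in 60.3% and 60.0% of cells, the feedback inhibitor Axin2 in 40.0%, Znrf3 in 29.8% and the secreted inhibitor Notum in 23.7%. Lgr5 followed at 5.54% and Nkd1 at 2.15%. Rnf43 had a single UMI before thinning and none after it. Of the Lif-Stat3 targets, the kinase genes Pim1 and Pim3 were seen in 88.6% and 62.8% of cells and Stat3 itself in 63.1%, and the feedback inhibitor Socs3 in 16.0%. None of the 5 Wnt targets and 4 Lif-Stat3 targets with a mean of at least 1 UMI lay above the spike-in line. Of all such genes only 24.0% did, and 10.5% under the second scaling. The median ratios of the Wnt and Lif-Stat3 targets were 0.674 and 0.459, against 0.841 over all genes. Of 4 such ERK targets the immediate early gene Fos lay above the line, at 6.16 times its value (6.17 under the second scaling, where 1 more of the 4 did). The dispersion of Fos was 39.6, and 11.4 with IFC column 3, which holds the cell of its top count, left out.

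Fos was also the most variable of the immediate early genes, which respond within minutes to handling or growth factors. A Fos UMI was seen in 47 unthinned cells, and 34.6% of all Fos UMIs came from 1 cell, column 3 row 40, with 247 UMIs. Dusp1 and Atf3 lay at 1.81 and 1.52 times the spike-in line, or 1.47 and 1.32 under the second scaling. The heat shock genes Hspa1a and Hspa1b had a UMI in 2.77% and 3.08% of thinned cells.

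Of the gene lists examined, that of G2 and mitosis varied most clearly together between cells. The 25 genes of the G2/M list summed to 75 to 530 UMIs per thinned cell (median 257), and the 25 genes of the G1/S list to 120 to 408 (median 261). Of the G2/M genes 17 of 25 lay above the spike-in line, and 3 by more than 1.5 times, the kinetochore gene Cenpf (2.24; 1.59 under the second scaling), the DNA topoisomerase gene Top2a (2.22; 1.48) and the ubiquitin-conjugating enzyme gene Ube2c (1.53; 1.10). Of the G1/S genes 8 of 25 did, and none by more than 1.5 times. Under the second scaling 7 of the 25 G2/M genes and none of the 25 G1/S genes lay above the line. Of all genes 24.0% lay above it, and 10.5% under the second scaling. Of genes with a mean of at least 20 UMIs 48.1% and 8.74% did. Over the 325 cells, which share their culture and differ in depth, Spearman's rho of the 2 sums was -0.36. It was -0.32, -0.25, -0.30 and -0.10 at days 1 to 4.

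Genes within the G2/M list moved together, with a median rho of 0.15 between pairs against 0.01 over all 44100136 pairs of genes with a mean of at least 1 UMI. The closest pair was Top2a with Cenpf (0.46). Within the G1/S list the median was only 0.04. Between the 81 cells with the lowest G2/M sum (75 to 194) and the 81 with the highest (317 to 530), mean thinned UMIs were 23.6 and 52.7 for Top2a, 7.67 and 19.0 for the kinase gene Cdk1, 3.58 and 12.2 for the kinase gene Aurka, and 5.41 and 14.2 for Cdc20, an activator of the anaphase-promoting complex. These genes are in the sum and their values are a description of it. Outside the list, the cells with the highest sum held fewer UMIs of Ccne1, the cyclin of S phase entry (11.5 and 6.85), of the uracil glycosylase gene Ung (8.40 and 3.95) and of Slbp, which binds histone mRNA (2.36 and 1.22), whereas the replication licensing gene Mcm2 (13.0 and 13.2) was close in both. The cells with the highest sum were also deeper, with a median of 151604 UMIs against 123597 before thinning. The G2/M sum had a Spearman correlation of 0.32 with the UMI total and of -0.18 with ERCC UMIs, and the part of depth in the sum was not tested.

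**Figure D3:**
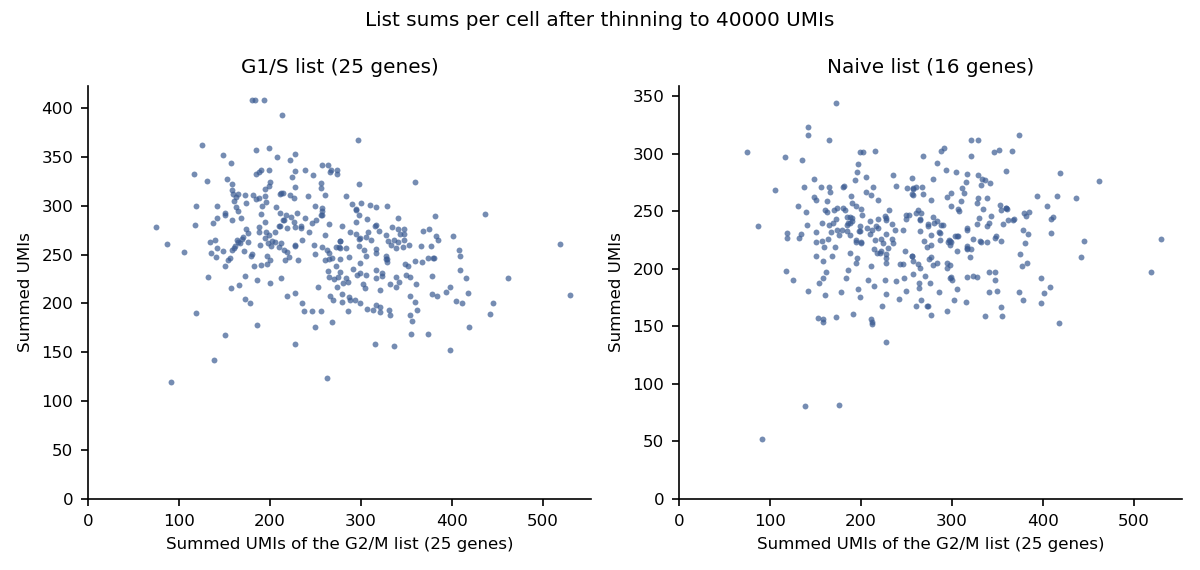
Summed thinned UMIs of the G1/S list (left) and of the naive list (right) against that of the G2/M list in each of the 325 cells. The G1/S sum is lower in cells with a high G2/M sum, at a median of 240 UMIs in the 81 highest against 276 in the 81 lowest, and the naive sum has medians of 239 and 238.

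The genes outside the list that followed the G2/M sum most closely were Prc1, a bundler of spindle microtubules (rho 0.53), the checkpoint gene Bub3 (0.49), Arl6ip1 (0.49), the condensin gene Smc4 (0.44) and the spindle gene Aspm (0.42). The lowest values were those of the linker and core histone genes Hist1h1b (-0.39), Hist1h2ac (-0.39), Hist1h1e (-0.35) and Hist2h2ac (-0.30) and of the mitochondrial ribosomal RNA mt-Rnr2 (-0.29). A gene cannot exceed 1024 UMIs in a cell, and mt-Rnr2 had a median of 989. The part of this limit, and of depth, in the value of mt-Rnr2 was not tested. Hist1h1b averaged 9.22 thinned UMIs in the 81 cells with the lowest G2/M sum and 3.40 in the 81 with the highest. Histone mRNAs of this kind accumulate in S phase and carry no poly(A) tail in their usual form.

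The naive genes did not follow the cycle lists. The naive sum had a Spearman correlation of 0.00 with the G2/M sum and -0.03 with the G1/S sum, and its median was 238 and 239 UMIs in the 81 cells with the lowest and highest G2/M sum. Single naive genes differed in either direction between these cells, with 11.9 and 15.3 mean thinned UMIs of Nanog, 10.8 and 13.8 of Zfp42, 2.85 and 4.10 of Nr5a2 and, in the other direction, 16.4 and 13.9 of Klf4 and 0.963 and 0.148 of Gbx2, while Prdm14 had 4.43 and 4.49. Of the D-type cyclins, which pass cells through G1, Ccnd3 was in every thinned cell (799 CPM ± 285), Ccnd1 in most (157 CPM) and Ccnd2 in 0.923%. The cell cycle inhibitor genes Cdkn1b, Cdkn2a and Cdkn1c had a UMI in 23.1%, 4.31% and 1.54% of cells. Cdkn1a, an inhibitor and target of p53, was in 96.0% (281 CPM ± 195).

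Targets of p53 varied more than most genes. Of 7 with a mean of at least 1 UMI, 5 lay above the spike-in line, the same number as under the second scaling. Of all genes 24.0% and 10.5% did. Mdm2, the gene of the ligase that marks p53 for degradation, was at 1.86 times the line (1.49 under the second scaling) and the antiproliferative gene Btg2 at 1.85 (1.56). Their pairs had a median rho of 0.09, highest for Trp53inp1 with Btg2 (0.23). The value was 0.08 without the 6 Gpnmb-high cells described further on and 0.07 without IFC column 2. The p53 sum had a Spearman correlation of -0.12 with the naive sum.

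Within the naive list the genes barely moved together. The median rho over 120 pairs was 0.03 and the highest 0.15, for Nanog with Prdm14, while 1% of all pairs of genes exceeded 0.14. Nanog had a rho of 0.05 with Esrrb and 0.03 with Klf4. At days 1, 2 and 3 the median within the same list, over the 15, 14 and 13 genes that reached a mean of 1 UMI, was 0.10, 0.14 and 0.19, and at day 4 it was 0.06 over 11 genes. The days differ in culture, chip and mean level, and the difference between them was not tested. At day 0 the median was 0.02 without the 6 Gpnmb-high cells and 0.03 without IFC column 2. The day 0 values are weak throughout.

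The genes with the highest rho with Nanog were the kinase gene Sgk1 (0.29), the mitotic gene Cdc20 (0.24) and the mitochondrial gene mt-Nd2 (0.23), and the lowest were genes of the ribosome, Rps10 (-0.29) and Rack1 (-0.26) among them. Without IFC column 2, where Nanog was low, rho was 0.26 for Sgk1, 0.15 for mt-Nd2 and -0.28 for Rps10. Some pairs outside the lists, noticed after the values were seen, were far closer. The neighbouring metallothionein genes Mt1 and Mt2 had a rho of 0.71, the autophagy receptor gene Calcoco2 and the glutathione transferase gene Gsto1 0.52, and the stress response genes Nupr1 and Trib3 0.31.

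Other lineages were rare. No cell was marked by the 2-cell-like list (at least 3 genes and 5 UMIs after thinning; up to 0.923% allowed), which had 2 UMIs at day 0, both of Zfp352, against 7, 42, 120 and 30 at days 1 to 4. The neural list marked none, with the same limit, the mesendoderm list 1 cell and the fibroblast list 1 cell. The trophoblast list marked 3 cells, all through the keratin gene Krt18, together with Krt8 and Gata3, Krt8 and Ascl2, or Gata3 and Cdx2. The primitive endoderm list marked 47 cells (14.5%, 10.8% to 18.8%), but through the extracellular matrix genes Sparc, which was in every cell, Col4a1 (33.2%) and Lamb1 (20.6%) and the adaptor gene Dab2. Its defining transcription factors were near 0, with Gata6 in 1.23% of thinned cells, Gata4 in 0.615% and Sox17 in none. The germline list marked 8 cells, and its RNA-binding protein gene Dazl had a UMI in 56.3% of thinned cells and up to 162 UMIs in a cell, with a dispersion 2.39 times the spike-in line (2.01 under the second scaling).

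Counts of a rare gene were also seen next to its top cell on the chip. For 59 rare genes with a top count of at least 50 UMIs, 28.0% of the cells in adjacent rows of the same column had a UMI of the gene, against 5.73% of the remaining cells of that column and 5.09% of cells in other columns. An adjacent cell held 1.63% of the top cell's UMIs on average, or 0.735% without Dab2 and Igfbp4. Over all cells of the same column the average was 0.722%. This value kept all 59 genes and the adjacent cells, so that it cannot be set against the 0.735%. Of the 59 genes, 49 had at most 1 UMI in adjacent cells. Low shares of cells with a UMI are therefore not read as expression here, and rare cells are described by their counts.

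The genes with the highest dispersion pointed to a handful of cells. Ranked first was Dct, the dopachrome tautomerase of melanin synthesis, with a UMI in 9 cells, of which 2 held 309 and 129 UMIs and the next 10. Its dispersion was 15.2 times the spike-in line, and that of Gpnmb, which encodes a glycoprotein of melanosomes and lysosomes, was 14.2 times the line. Gpr143, a receptor of melanosomes, was also among the 20 most dispersed genes, at 6.39 times the line. The other genes of these 20 at over 3 times the line were Gm17251 (6.57), Anxa2 (6.51) and Fos (6.16). The dispersion of Gpr143 was 24.4, and 12.0 without IFC column 4. That of Anxa2 was 32.0, with 16.9 without column 8 and 52.1 without column 3.

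Gpnmb had 50 UMIs or more in 6 of the 325 cells (1.85%, 0.680% to 3.97%), a minimum chosen after the values were seen. These 6 held 462, 254, 199, 102, 102 and 73 UMIs, the next cell held 39, and together they carried 72.2% of all Gpnmb UMIs. They came from 5 IFC columns, 1 of them in column 2, and 5 of them are on the study's list of kept cells. In the same order, Nanog held 3, 10, 2, 3, 3 and 6 UMIs, against a median of 47 in the 319 other cells (1 to 154). All 6 thus lay at the low end of Nanog, while the naive sum was the lowest of all cells in only 3 of them, at 2019, 1228 and 2229 CPM, and 5259, 5480 and 4352 CPM in the others.

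The 6 Gpnmb-high cells were also the 6 cells with the lowest share of mitochondrial UMIs. It was 0.399% to 1.42% in them and 1.57% to 5.11% in the others (median 2.45%), without overlap. Other measures of the cells moved with it. Medians in the 6 and in the 319 others were 107672 and 137517 UMIs, 515.5 and 405 ERCC UMIs, 6.09% and 4.74% ribosomal protein UMIs, 12.6% and 10.4% unspliced UMIs, and 147 and 262 thinned UMIs of the G1/S list, and their part in the pattern was not tested. In the same order of cells, the mitochondrial ribosomal RNA mt-Rnr1 held 602, 156, 182, 64, 152 and 128 UMIs against a median of 848, and the nuclear gene Hspd1, which encodes a mitochondrial chaperonin, 39, 21, 5, 16, 14 and 11 against 81. Hspd1, Nanog and mt-Rnr1 were the only 3 of 3166 genes with a mean of at least 10 UMIs that were lower in each of the 6 cells than in 97% of the others.

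**Figure D4:**
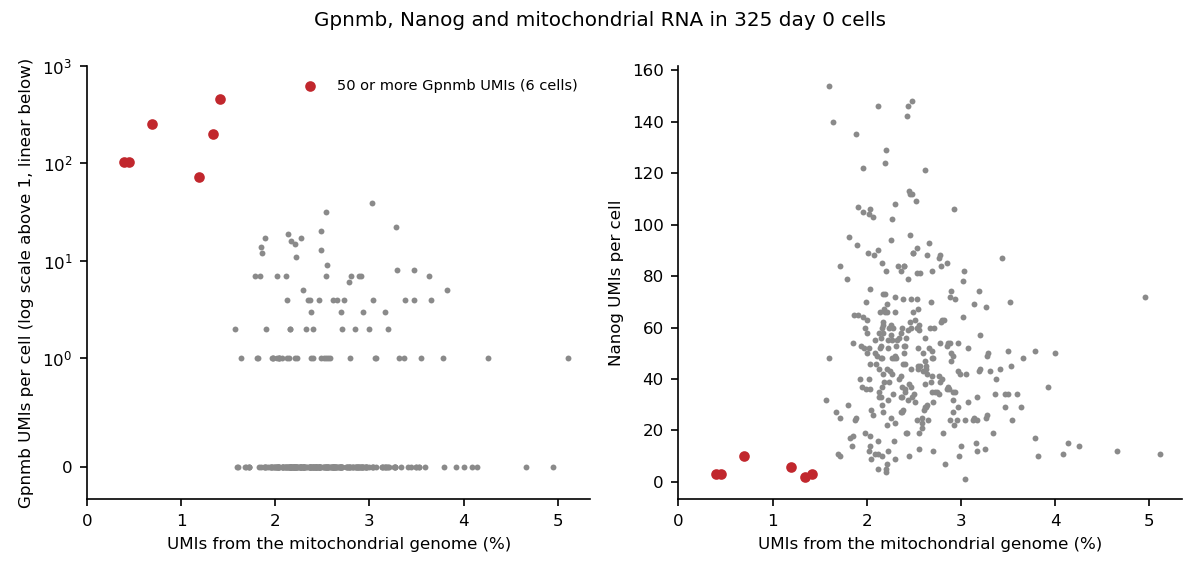
Gpnmb UMIs (left, log scale above 1 UMI) and Nanog UMIs (right) against the share of UMIs from the mitochondrial genome in each of the 325 cells, with the 6 cells of at least 50 Gpnmb UMIs in red. These 6 lie below 1.57% mitochondrial UMIs, the lowest value of any other cell, and hold 2 to 10 Nanog UMIs.

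Other genes were high in most of the 6. In the same order the melastatin channel gene Trpm1 held 407, 65, 275, 28, 36 and 64 UMIs (other cells: median 20, highest 141), and Gpr143 95, 92, 284, 8, 77 and 0. The lysosomal membrane gene Lamp1 held 198, 51, 103, 99, 141 and 44 against a median of 51. The noncoding host genes of small nucleolar RNAs Gas5 (622, 540, 434, 313, 478 and 141 against 172) and Zfas1 (258, 268, 164, 27, 169 and 8 against 36) were high in most of them, and so was 2410006H16Rik (557, 544, 485, 173, 368 and 121 against 66). Of the 483 genes with at least 10 UMIs in each of the 6 cells, only Gpnmb, by choice, and 2410006H16Rik were higher in each than in 97% of the others. Dct (309, 0, 129, 0, 0 and 0) and Pmel, of the melanosome matrix (39, 0, 59, 1, 56 and 0), were high in some of them only. What the 6 cells share is thus high Gpnmb and 2410006H16Rik with low Nanog, Hspd1 and mitochondrial counts, while Dct, Pmel, Gpr143 and Zfas1 vary among them, and they are given no cell type name here.

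Cells with at least 50 Gpnmb UMIs were seen mainly at day 0. At day 1, 1 of 356 cells held at least 50 Gpnmb UMIs (237 UMIs). Its mitochondrial share of 0.753% ranked only 5th from the lowest of that day, and cells without such Gpnmb counts lay below it. At days 2 to 4 none of 369, 302 and 315 cells held 50 Gpnmb UMIs, which allows shares of up to 0.813%, 0.993% and 0.952%. A Gpnmb UMI was seen in 27.7% of day 0 cells and in 0.952% to 2.17% of the cells of days 1 to 4. The bulk libraries, which hold other cultures too, had 36.9, 37.3 and 31.3 CPM of Gpnmb in the 3 day 0 replicates. Between day 0 and day 1 the bulk level of Gpnmb fell by 4.35 on the log2 scale (SE 0.18) and that of Trpm1 by 5.45, both past an edgeR adjusted p of 0.05.

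A few further cells stood out by single counts, and were picked after the values were seen. Column 8 row 37 held 266774 UMIs, among them 262 of the membrane-binding Anxa2, 114 of Vnn1, 91 of Krt18, 66 of Dab2, 33 of Krt8, 18 of Pdgfra and 12 of Gata6, alongside 124 of Nanog. Some genes of primitive endoderm and of simple epithelia thus met Nanog in it. Gata4, Sox17 and Sox7, also on the primitive endoderm list, had 0 UMIs in this cell. Its UMI total was near the highest of any cell (279557), and its naive sum was low, at 3733.5 CPM (percentile 2.15). The site is on the study's list of kept cells, from which sites that held several cells under the microscope had been removed. It held 10 or more UMIs of 131 rare genes, the most of any cell (median 27), and 23 UMIs of Xist. Whether it held several cells was not tested. Column 4 row 21, the third of the Gpnmb-high cells, also held 152 UMIs of the germ cell gene Taf7l, 98 of Tdrd9, a helicase of the piRNA pathway, and 78 of Dazl. Of the germline list it held only 7 UMIs of Sycp3, and 0 of Ddx4 and of Mael. Column 3 row 40, the Fos-high cell, held 96 UMIs of A530041M06Rik and 82 of the stress-responsive Ndrg1.

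Allele-specific counts showed cells with 1 active X allele. In 13 cells over 80% of the X-linked allele-specific UMIs came from 1 allele, and 11 of these had no Xist UMI and were called XO-like (3.38%, 1.70% to 5.98%), 8 with the Cast and 3 with the B6 allele. The other 312 cells lay between 37.2% and 66.7% B6 (median 51.0%). The X-linked level, which did not enter the choice, was 2.59 to 3.04 UMIs per 100 autosomal UMIs in the XO-like cells (median 2.88) and 4.10 to 6.24 in the 312 others (median 5.17), without overlap. The XO-like median was 55.8% of the other. The 2 cells with 1 X allele and a Xist UMI were at 2.73 and 2.80. None of the 11 is on the study's list of kept cells.

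**Figure D5:**
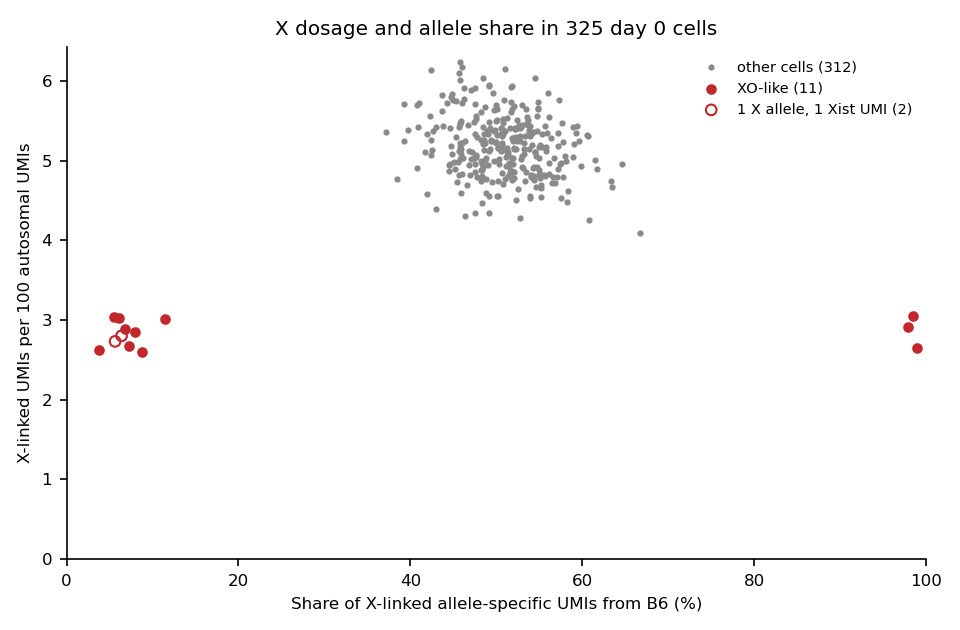
X-linked UMIs per 100 autosomal UMIs (vertical axis) against the share of X-linked allele-specific UMIs from B6 (horizontal axis) in each of the 325 cells. The 11 XO-like cells (filled red) and the 2 cells with 1 X allele and a single Xist UMI (open red) lie at 2.59 to 3.04, below all 312 other cells (grey, 4.10 to 6.24).

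The lower X dosage reached nearly all X-linked genes. Of the 86 X-linked genes with a mean of at least 20 UMIs, 85 had a lower mean CPM in the 11 XO-like cells, with a median log2 difference of -0.90, against 708 of 1534 autosomal genes with a median of 0.03. The ubiquitin ligase gene Huwe1 had 250 CPM in XO-like and 515 CPM in other cells, Rlim, an X-linked activator of Xist, 84.0 and 173 CPM, and the ERK phosphatase gene Dusp9 55.5 and 161 CPM. The homeobox gene Rhox5 differed more, with 213 and 882 CPM, and Ddx3x less, with 544 and 649 CPM. Nr0b1, the X-linked gene of the naive list, had 61.1 and 143 CPM, but the summed naive level was 5838 CPM ± 894 in XO-like and 5766 CPM ± 976 in other cells. The G2/M sum was 6116 CPM ± 2012 and 6504 CPM ± 2003. Among autosomal genes, the DNA methylation cofactor gene Dnmt3l had 105 and 27.0 CPM and Otx2 0.619 and 30.1 CPM, both named after their values were seen. Xist itself was silent in most cells, with a UMI in 21 (6.46%), more than 5 in 5 and at most 29.

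Single autosomes stood apart in some cells in the same manner. The UMIs of each autosome were taken as a share of the cell's autosomal UMIs and set against the median cell, with cuts chosen after the values were seen. In 15 instances a chromosome was at 125% of its median level or more (128% to 176%), and in another 15 at 75% or less (46.5% to 74.1%), together in 27 cells (8.31%). The allele-specific UMIs, which did not enter these cuts, were shifted by at least 8 percentage points from the median B6 share in 14 of the 15 high and 14 of the 15 low instances, against 4.95% of the 6145 other instances of a cell and an autosome. Among the high ones 9 shifts were towards B6 and 5 towards Cast, and among the low ones 6 and 8. In 25 of the 30 instances the cell was outside IFC column 2, and 18 were in cells kept in the study.

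Chromosome 8 was high most often, in 6 cells, at 130% to 152% of its median level, with a B6 share of 64.9% to 71.6% in 5 of them and 36.5% in 1, against a median of 51.1%. Of these cells 5 were among the 13 with 1 X allele, 4 of them XO-like, and 1 among the 312 others, and the 5 with excess B6 were those with 1 X allele. Gain of this chromosome is a known change of mESC lines in culture. Chromosome 5 was high in 3 cells, at 136%, 152% and 176%, all with excess B6 (70.6%, 77.4% and 73.5% against a median of 54.9%). In the lowest instances nearly all allele-specific UMIs came from 1 strain, such as chromosome 13 at 51.2% and 52.7% of its median level with 95.3% and 97.1% B6, chromosome 14 at 53.05% with 95.6% B6, and chromosome 2 at 58.7% with 3.24% B6 in the Gpnmb-high cell column 4 row 21. The naive sum of the 27 cells ran from 1228 to 7010 CPM.

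The bulk libraries show what became of the naive genes in the day that followed. They are compared here as populations, in which fewer cells of a type and less RNA per cell cannot be told apart. Of 18871 genes tested, 47.0% differed between day 0 and day 1 (edgeR, adjusted p of 0.05, two-sided), 23.5% higher and 23.4% lower at day 1, with a median log2 difference of -0.01 over all of them. Of the 16 naive genes 14 were lower and 2 higher, with a median log2 difference of -1.48. Nanog had 1050, 926 and 1262 CPM in the day 0 replicates and 206, 202 and 259 CPM at day 1, a log2 difference of -2.28 (SE 0.17, edgeR adjusted p = 5.67e-09). Prdm14 went from 167, 196 and 141 CPM to 12.7, 13.6 and 12.0 CPM (-3.71, SE 0.16, adjusted p = 6.07e-12) and Klf4 from 204, 199 and 266 CPM to 28.9, 36.4 and 33.7 CPM (-2.76, SE 0.20, adjusted p = 2.54e-09). Esrrb, the least changed of the 4, went from 583, 655 and 587 CPM to 321, 393 and 372 CPM (-0.75, SE 0.18, adjusted p = 0.00228). In none of the 4 did the days overlap. The 2 that rose were Gbx2 (3.10), the gene seen in the fewest day 0 cells of the list, and Nr0b1 (1.26).

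The pathway targets changed with the medium. Of 10 ERK targets 5 rose and 2 fell between day 0 and day 1. The rises were large in Spry4 (9.47 on the log2 scale, from 0.0271, 0.227 and 0.135 CPM to 62.1, 105 and 90.9 CPM), Etv4 (7.24) and Dusp6 (5.49, from 1.19, 2.69 and 2.47 CPM to 86.6, 97.7 and 92.5 CPM). These genes were near 0 in the day 0 cells. Egr1 was near 0 there too, with 3.62 CPM in the single cells of day 0 and 2.29 CPM in those of day 1. That difference was not tested. Etv5, seen in most day 0 cells, had a log2 difference of -0.17 that did not pass the test, and Spry2 fell by 0.95. All 7 Wnt targets tested fell. Sp5 had 18.2, 25.8 and 20.8 CPM at day 0 and was nearly gone at day 1, with 0.0291, 0 and 0.0607 CPM. Cdx1, a homeobox gene, fell by 5.32. Of 6 Lif-Stat3 targets 4 fell, Socs3 by 3.47 and Stat3 by 2.72 among them, and Pim2 rose by 3.15. Of 10 formative genes 9 rose, Fgf5 by 7.00 and Dnmt3a by 2.98 among them, and Zic2 was lower, a call that was lost without replicate 2, without replicate 3 and with the 6 libraries of both days alone. Of the cell cycle genes, 5 of 25 G1/S genes were higher and 5 lower, and 3 of 25 G2/M genes higher and 3 lower. These counts were not stable, with 2 to 5 G1/S genes higher and 1 to 5 lower over the alternatives, and 1 to 4 G2/M genes higher and 2 to 6 lower, the 6 with the replicate block. Of 10 p53 targets 1 was higher (0 without replicate 1 or 3) and 4 lower. For comparison with these counts, 23.5% of all 18871 genes tested were higher and 23.4% lower.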

How the data were processed

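For the single cells, the authors aligned reads with STAR 2.5.2b to mm10 (GRCm38) in which strain SNPs were masked, and deposited raw UMI counts of every gene in every capture site, both total and split by allele (SNPsplit) or splicing. For bulk samples the authors deposited raw featureCounts read counts per gene, 19827011 to 39628784 per library. Every per-sample column had a sample, so 0 were left unused.

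A UMI has 5 bases, so a gene cannot exceed 1024 UMIs in a cell, which only mt-Rnr2 reached. Cells were thinned to 40000 UMIs by seeded random draws without replacement. Shares have exact 95% intervals. Where no cell was counted, the share said to be allowed is instead 3 divided by the number of cells. For 325 cells this is 0.923%, where the exact upper limit is 1.13%. Cells were not used as replicates. Bulk days were compared with edgeR 4.0.16 (quasi-likelihood test, TMM, filterByExpr, Benjamini-Hochberg) over the 15 TX1072 libraries. The alternatives were DESeq2 1.42.0, its size factors, no filter on low counts, 6 samples only, scran 1.30.0 size factors, other minimums, other cell sets, and a library or column left out. Python 3.11.15, numpy 2.4.6, scipy 1.17.1 and R 4.3.3 were used, and the scripts were tested on simulated data.

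Genes named are those of 19 lists (221 genes), the 20 most dispersed genes, the 20 rare genes with the highest single-cell count, the most abundant genes, and those with the highest and lowest rho with Nanog or the G2/M sum. Others are said to be chosen after their values were seen, and such choices, the spike-in comparison, the Gpnmb-high cells, the check of column 2 and the autosome levels included, were added. The members and lists were chosen with earlier results of these data known.

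The study's reporting summary states that bulk replicates were differentiated on different days, so that numbers pair the libraries. Deviations from the day means had a median correlation of 0.126 for same-numbered libraries of different days (17 of 30 pairs exceeded 0.1) and of -0.0678 for the rest.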

Additional observations from a re-analysis of the deposited data

Results flagged for a closer look

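Among the 10 IFC columns of day 0, 2 of 22 measures had a column whose mean lay beyond Dixon's limit for 10 values (0.466 of the range), and chance alone passes this limit in about 1 of 20 measures. Both were in column 2, which holds 28 of the 325 cells. Its mean level of Nanog was 236 CPM, against a nearest neighbour at 323 CPM and a highest column at 419 CPM. Its mean level of Zfp42 was 406 CPM, against a nearest neighbour at 323 CPM and a lowest column at 256 CPM. Column 2 was also apart in 219 of 1625 genes with a mean of at least 20 UMIs, and its cells had the lowest median UMI total of the 10 columns (106724), the fewest detected genes (5866.5), the lowest mitochondrial share (2.19%) and the highest ribosomal (5.51%) and unspliced (11.3%) shares. The part of depth, of these measures or of the library in the values was not tested.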

How the results depend on the processing

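Of 238 alternative values, 213 stayed close to the original (counts within 1.5 times, other values within their spread or interval, bulk differences in call and direction) and none turned over. The 213 include the dispersions with an IFC column left out, judged against the SD between single columns. For Prdm14 this SD was 0.378, and the values ran from 0.841 to 0.921. Leaving out a column could hardly move a value that far, so that these alternatives say little about stability. Numbers of cells marked by a list depended on the minimum. With at least 2 genes and 3 UMIs, the formative list marked 241 cells, the primitive endoderm list 178, mesendoderm 9, neural 10, trophoblast 11, fibroblast 19 and germline 49. With 3 genes and 10 UMIs the formative list marked 86, mesendoderm 0 and fibroblast 0. Without thinning, formative marked 196, primitive endoderm 82, mesendoderm 2, neural 1, trophoblast 5, fibroblast 6 and germline 15, and the 4 markers were detected in 100%, 100%, 82.5% and 100% of cells. Among the 277 cells kept in the study, mesendoderm marked 0, germline 5 and XO-like cells numbered 0. With a minimum of 20 Gpnmb UMIs, 10 cells in place of 6 were Gpnmb-high. With each spike-in scaled to the sum of the others, chosen after seeing the data, 983 of 9382 genes lay above the spike-in line in place of 2255, 6 of the 16 naive genes in place of 11, and 7 of the 25 G2/M genes in place of 17. Leaving out an IFC column kept the median naive dispersion at 0.326 to 0.351.

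With the replicate number as a block, which pairs the bulk libraries, 4718 genes were higher and 4786 lower at day 1, against 4444 and 4419 without it, and none of the 4 markers changed its call. Without 1 replicate 3275 to 4145 genes were higher and 3055 to 4234 lower. A UMI total near 40000 limits shares of lowly counted genes, and a single culture per day leaves differences between days without a replicate in single cells.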
